A study of Canis lupus familiaris with 9 samples.

Results

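RNA levels were compared between cultures grown from dog brain (Brain) and fibroblasts grown from dog skin (Fibroblast), over every gene that the array's platform table names. The comparison used the 6 arrays titled Brain 1 to 3 and Fibroblast 1 to 3, of 9 arrays in the study. The other 3 hold precursors from skin and entered only the estimate of the spread and the choice of probe sets. It covered 15947 named genes, each read by 1 probe set, the one with the highest mean over the 9 arrays. Brain cultures are described as neural precursors derived from brain, and the labels used here give no medium for them. Fibroblasts came from digested skin biopsies of pet dogs in the community, taken as surplus tissue at routine surgery, and grew in DMEM/F12 with serum. Neither culture was treated before Trizol extraction, and biotinylated cRNA was put on Affymetrix arrays. Organ and cell type differ together between the groups, and whether the medium does is not known, so that their parts cannot be told apart. Whether the replicates came from separate dogs or cultures, and from which, is not stated in the labels, so each p measures the spread between these samples and no more.

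Neural precursors are dividing cells of the nervous system that give rise to neurons and glia, and in culture they are usually carried with growth factors and without serum. Dermal fibroblasts build and remodel the collagen matrix of skin, and serum keeps them in a state close to wound repair. Peripheral glia and the neural crest from which they arise share many surface receptors with glia of the brain.

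Signals are log2 units as deposited, so that 1 unit is 2-fold, and array medians lay between 4.715 and 4.786. Correlations over all probe sets were 0.9785 to 0.9853 among Brain arrays and 0.9807 to 0.9820 among Fibroblast arrays, and 0.9152 to 0.9403 between the groups. A gene is "called" when limma's moderated test gave a Benjamini-Hochberg adjusted p under 0.05 over all 32205 probe sets. Differences are Brain minus Fibroblast with the standard error of the fit (SE, n = 3 and 3). Single arrays stood apart. In Fibroblast 1 and in Brain 3 a set of genes read closer to the other culture, as described at the end. Brain 1 lay at least 2 units from the mean of the other Brain arrays in 94 genes, 53 of them toward Fibroblast, while Brain 3 did so in 83 genes, 63 of them toward Fibroblast. Limma's array weight was lowest for Brain 1 (0.565) and highest for Brain 3 (1.49) among these arrays. For some of the genes and lists in which Fibroblast 1 or Brain 3 stood apart, results are given without them as well. Levels are read from bulk cultures, in which fewer cells of a type and less RNA per cell cannot be told apart.

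The label of the Brain cultures was set against markers of the cell types they could hold. Over all named genes 13.8% were called higher in Brain and 13.2% lower, and each marker count is to be read against these shares. In the Schwann cell and neural crest list 9 of 12 measured members were called higher in Brain and 1 lower. NGFR, the low-affinity neurotrophin receptor, read 11.40, 11.29 and 10.70 in the Brain arrays, against 7.32, 5.5 and 5.60 in the Fibroblast arrays. ERBB3, the neuregulin receptor that Schwann cells depend on, read 9.47, 9.37 and 9.76 in the Brain arrays, against 5.68, 4.26 and 3.84 in the Fibroblast arrays. The groups did not overlap in either gene. The mean over this list was 8.69 to 8.80 in the Brain arrays, against 6.54, 5.83 and 5.47 in the Fibroblast arrays. In the oligodendrocyte lineage list 5 of 10 were called higher, among them CNP and MOG, and PDGFRA was called lower, with 2 lower without Brain 3. MBP, MAG and NKX2-2 of that list were not called. Among neural stem and progenitor genes 1 of 12 was called higher, the intermediate filament NES, and 1 lower, FUT4. Without Brain 3 there were 2 called higher. The FUT4 call was lost without Brain 3 (adjusted p 0.073), Fibroblast 2 (0.0627) or Fibroblast 3 (0.0576). SOX2, a transcription factor of neural stem cells, read 7.36, 7.16 and 5.34 in the Brain arrays, against 5.00, 5.35 and 5.16 in the Fibroblast arrays, and was not called (adjusted p 0.0651). SOX2 was high in 2 of the 3 Brain arrays, while Brain 3 read near the Fibroblast arrays. NR2E1, another stem cell factor, read 2.76, 3.09 and 2.83 in the Brain arrays, against 2.90, 3.03 and 2.97 in the Fibroblast arrays. PAX6, SOX1, SOX3, HES5, MSI1 and FABP7 were not called either.

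Among neuronal genes 1 of 13 was called higher, the microtubule protein MAP2, and 1 lower, GAP43. Without Brain 1 or Fibroblast 1 there were 2 called higher. The GAP43 call was lost without Brain 1 (0.0626), Brain 2 (0.064), Fibroblast 1 (0.0521) or Fibroblast 2 (0.0733). Among astrocyte genes 1 of 10 was called higher, the water channel AQP4, and 2 lower, GJA1 and SLC1A3. The astrocyte filament GFAP read 4.94, 5.03 and 4.74 in the Brain arrays, against 4.25, 4.61 and 4.63 in the Fibroblast arrays, and was not called. The SLC1A3 call was lost without Brain 1 (0.05), Brain 2 (0.0522) or Fibroblast 2 (0.057). The list of olfactory ensheathing cells had 3 of 11 members higher and 2 lower, and that of meningeal cells 2 of 8 higher and 1 lower. The meningeal list had 1 higher without Brain 1, Brain 2, Fibroblast 1 or Fibroblast 2, and 0 lower without any 1 of the Brain arrays. The fibroblast list had 10 of 12 members called lower in Brain, with means of 5.30, 5.33 and 6.80 in the Brain arrays, against 9.95 to 10.29 in the Fibroblast arrays. Its 1 member called higher, FBLN1, lost the call without Brain 1 (0.0814), Brain 3 (0.0833), Fibroblast 1 (0.0811) or Fibroblast 3 (0.087). Pericyte and smooth muscle genes had 0 of 10 higher and 4 lower, with means of 4.36, 3.98 and 5.78 in the Brain arrays, against 6.67 to 6.73 in the Fibroblast arrays. Markers of endothelium (0 of 9 higher, 1 lower), microglia and other leukocytes (0 of 8, 1), ependyma and choroid plexus (0 of 7, 1), keratinocytes and epithelium (0 of 7, 1) and melanocytes (1 of 7, 1) showed few calls. In lists of this size 1 call in a direction is near the share over all genes. The calls for microglia, ependyma and keratinocytes were lost without any 1 of the Brain arrays (0 calls), and the higher one for melanocytes without any 1 of the Fibroblast arrays. The means over these 5 lists lay between 3.15 and 4.0 in the Brain arrays and between 3.35 and 4.41 in the Fibroblast arrays. Many genes of the Schwann cell and crest list and of the oligodendrocyte lineage list, which share members such as SOX10, were thus called higher in the Brain cultures. Over all arrays the stem cell markers their label names were called higher no more often than genes at large. They are called Brain cultures here.

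Of the 15947 genes 4308 were called (27%), 2207 of them higher in Brain (13.8%) and 2101 lower (13.2%). A difference of at least 2-fold was called for 2138 genes (13.4%), at least 4-fold for 481 higher and 438 lower, at least 16-fold for 89 and 100, and at least 64-fold for 14 and 19. The groups did not overlap in 7069 genes (44.3%), and in 4296 of the 4308 called ones. The median difference over all genes was -0.06. The call held through the removal of each of the 9 arrays in turn for 1397 genes higher in Brain and 1312 lower. Without Fibroblast 1 and Brain 3 there were 2425 calls, 1207 higher and 1218 lower, over 2 arrays in each group.

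**Figure D1:**
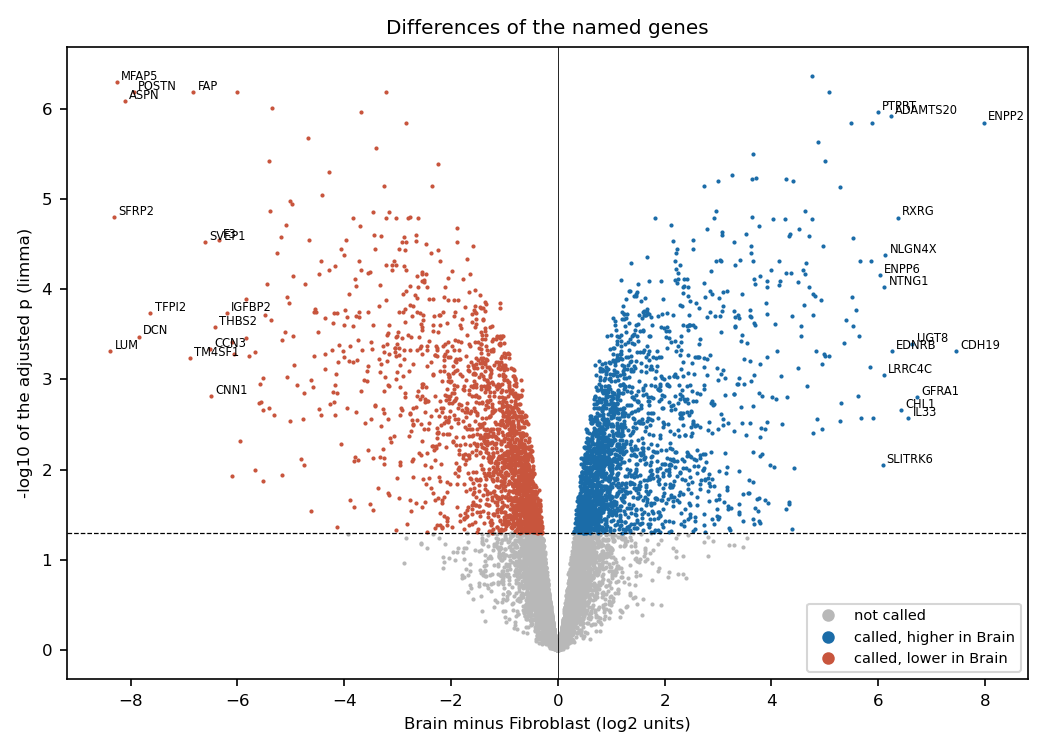
Each point is 1 of 15947 named genes, with the Brain minus Fibroblast difference in log2 units on the x axis and the -log10 of limma's adjusted p on the y axis. The dashed line marks an adjusted p of 0.05, the 15 leading genes in each direction are named, and ENPP2 and LUM lie farthest out on the 2 sides.

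The largest positive difference was that of ENPP2, or autotaxin, a secreted enzyme that makes lysophosphatidic acid. ENPP2 read 10.96, 10.94 and 10.95 in the Brain arrays, against 2.94, 2.84 and 3.12 in the Fibroblast arrays, a difference of 7.98 ± 0.27 (adjusted p 1.43e-06). The groups lay far apart, and the Brain arrays read close together. UGT8, which makes the galactolipids of myelin, read 10.70, 10.66 and 10.62 in the Brain arrays, against 5.84, 3.09 and 3.13 in the Fibroblast arrays (6.64 ± 0.69). ENPP6, a choline phosphodiesterase of myelinating cells, read 9.25, 10.18 and 9.79 in the Brain arrays, against 4.76, 3.17 and 3.17 in the Fibroblast arrays (6.03 ± 0.43). In both, Fibroblast 1 was the highest Fibroblast array and remained below every Brain array. RXRG, a retinoid receptor, read 9.51, 9.63 and 9.60 in the Brain arrays, against 3.86, 3.07 and 2.68 in the Fibroblast arrays (6.37 ± 0.33, adjusted p 1.61e-05). EDNRB, an endothelin receptor that crest cells need, read 9.83, 10.38 and 10.29 in the Brain arrays, against 5.42, 3.36 and 2.94 in the Fibroblast arrays (6.26 ± 0.67). ADAMTS20, a secreted metalloprotease required by pigment cell precursors in the mouse, read 8.95, 9.33 and 8.81 in the Brain arrays, against 3.10, 2.60 and 2.66 in the Fibroblast arrays (6.24 ± 0.20, adjusted p 1.2e-06). In all 3 the Brain arrays read close together.

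Adhesion and guidance molecules of the nervous system made up much of the rest of the leading genes higher in Brain. The cadherin CDH19, known from precursors of Schwann cells, read 10.79, 11.20 and 11.20 in the Brain arrays, against 5.86, 2.14 and 2.82 in the Fibroblast arrays, a difference of 7.45 ± 0.80 and of 8.51 without Fibroblast 1 and Brain 3. NTNG1, a membrane-anchored netrin, read 10.26, 10.16 and 10.35 in the Brain arrays, against 5.27, 3.71 and 3.43 in the Fibroblast arrays (6.12 ± 0.46). LRRC4C, the leucine-rich repeat protein that binds NTNG1 across the synapse, read 10.24, 10.96 and 9.88 in the Brain arrays, against 5.92, 3.39 and 3.43 in the Fibroblast arrays (6.11 ± 0.75). Ligand and partner were thus both called higher. NLGN4X, a synaptic adhesion molecule, read 8.18, 9.43 and 9.46 in the Brain arrays, against 2.51, 3.62 and 2.54 in the Fibroblast arrays (6.14 ± 0.39). CHL1, an adhesion molecule of growing axons, read 10.99, 10.96 and 10.74 in the Brain arrays, against 7.04, 3.25 and 3.12 in the Fibroblast arrays (6.43 ± 0.94). PTPRT, a receptor phosphatase with homophilic adhesion, read 9.34, 9.91 and 9.42 in the Brain arrays, against 3.28, 3.75 and 3.66 in the Fibroblast arrays (6.00 ± 0.19, adjusted p 1.09e-06). Fibroblast 1 was the highest Fibroblast array in CHL1, NTNG1, LRRC4C and CDH19, but not in PTPRT or NLGN4X. GFRA1, the receptor that binds the neurotrophic factor GDNF, read 12.44, 12.27 and 11.96 in the Brain arrays, against 7.99, 4.48 and 4.04 in the Fibroblast arrays (6.72 ± 0.92). IL33, a nuclear cytokine released by damaged cells, read 11.27, 11.62 and 11.32 in the Brain arrays, against 7.29, 2.99 and 4.23 in the Fibroblast arrays (6.56 ± 1.01). SLITRK6, a leucine-rich repeat protein of sensory neurons, had a difference of 6.08 ± 1.21.

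Secreted matrix proteins led the genes lower in Brain. LUM, a collagen-binding proteoglycan, read 2.26, 2.93 and 6.44 in the Brain arrays, against 12.24, 12.18 and 12.35 in the Fibroblast arrays (-8.38 ± 0.90, and -9.67 without Fibroblast 1 and Brain 3). DCN, a proteoglycan of the same family, read 2.98, 2.75 and 6.22 in the Brain arrays, against 11.97, 11.75 and 11.78 in the Fibroblast arrays (-7.84 ± 0.78, and -8.90 without those arrays). In both, Brain 3 lay between the groups. MFAP5, a protein of elastic microfibrils, read 2.75, 3.25 and 2.85 in the Brain arrays, against 10.92, 11.44 and 11.26 in the Fibroblast arrays (-8.26 ± 0.20, adjusted p 5.06e-07). ASPN, a further small proteoglycan, read 3.43, 3.31 and 3.04 in the Brain arrays, against 11.39, 11.58 and 11.15 in the Fibroblast arrays (-8.11 ± 0.23). POSTN, a matrix protein of healing skin, read 2.76, 2.99 and 3.05 in the Brain arrays, against 10.61, 11.38 and 10.63 in the Fibroblast arrays (-7.94 ± 0.22). In these 3 no Brain array stood out. SFRP2, a secreted modulator of Wnt signals, differed by -8.31 ± 0.43, the membrane protease FAP by -6.83 ± 0.18, and SVEP1, a large adhesive matrix protein, by -6.61 ± 0.40. THBS2, an inhibitor of vessel growth, differed by -6.42 ± 0.61 and CCN3 by -6.51 ± 0.69.

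The remaining leading genes lower in Brain act in clotting, growth factor binding and contraction. F3, or tissue factor, which starts coagulation, read 3.94, 3.89 and 3.41 in the Brain arrays, against 10.60, 9.25 and 10.44 in the Fibroblast arrays (-6.35 ± 0.37). TFPI2, an inhibitor of proteases that include plasmin, read 2.62, 2.96 and 5.54 in the Brain arrays, against 11.46, 11.03 and 11.51 in the Fibroblast arrays (-7.63 ± 0.67). IGFBP2, which binds insulin-like growth factors, read 4.56, 4.45 and 6.07 in the Brain arrays, against 11.06, 11.17 and 11.43 in the Fibroblast arrays (-6.19 ± 0.54). TM4SF1, a surface protein of migrating cells, differed by -6.89 ± 0.77 and CNN1, a calponin of smooth muscle, by -6.49 ± 0.88. Brain 3 was the highest Brain array in TFPI2, IGFBP2, TM4SF1 and CNN1, and the lowest in F3. All 30 leading genes kept call and direction in each of 19 alternative analyses.

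**Figure D2:**
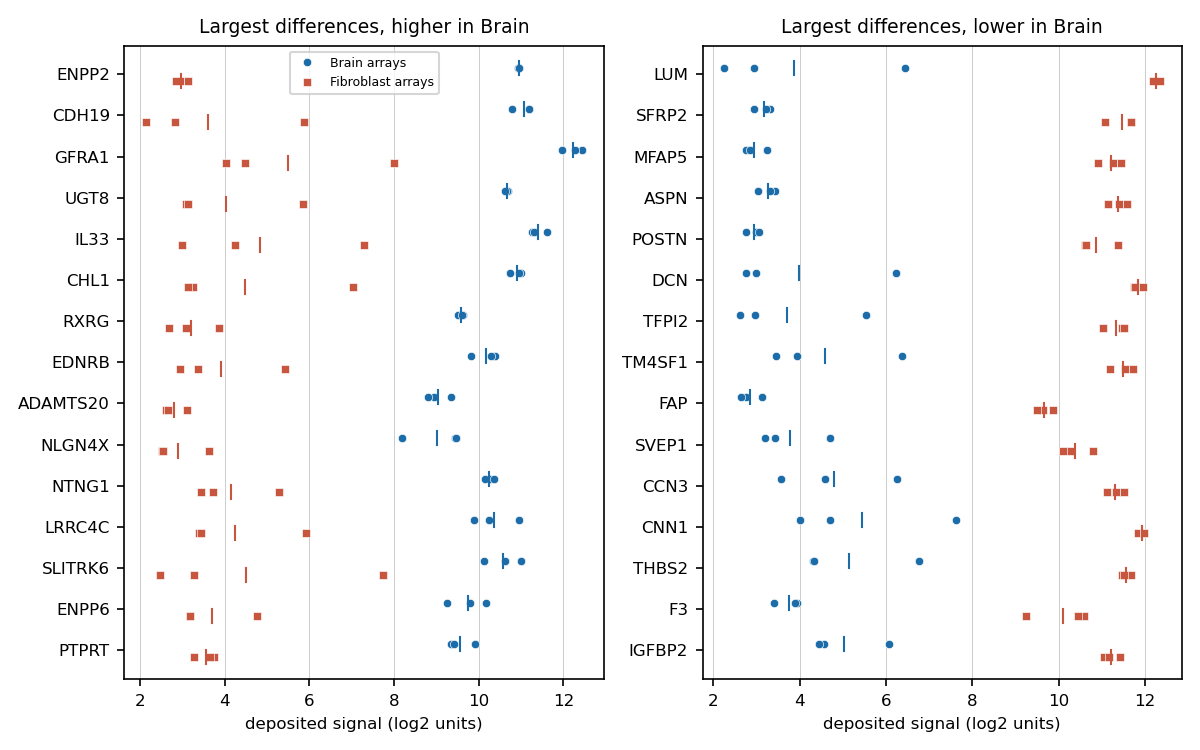
Deposited log2 signals of the 15 leading genes in each direction, with 1 point for each Brain array (circles) and each Fibroblast array (squares) and a vertical bar at each group's mean. The 30 genes were chosen among called genes whose groups do not overlap. Single arrays lie toward the other group in genes such as SLITRK6 (Fibroblast 1) and LUM (Brain 3).

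Beyond these genes, 38 lists of gene families and functions were counted. The highest shares called higher in Brain were those of microtubule genes, receptor tyrosine phosphatases and chromatin subunits, and the highest shares called lower those of nutrient carriers, serpins with cathepsins, and one-carbon enzymes. This order did not hold without Fibroblast 1 and Brain 3. The counts higher were then 10 of 31 leucine-rich repeat proteins, 9 of 32 chromatin subunits, 7 of 36 microtubule genes and 3 of 18 phosphatases, and those lower 8 of 20 carriers, 11 of 34 T-box and nuclear receptors, 7 of 23 serpins and cathepsins and 6 of 20 one-carbon enzymes. Without Fibroblast 1 alone, 9 of 31 leucine-rich repeat proteins and 10 of 36 microtubule genes were called higher. Each count below is to be read against 13.8% of all genes called higher and 13.2% called lower, and each median against -0.06.

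**Figure D3:**
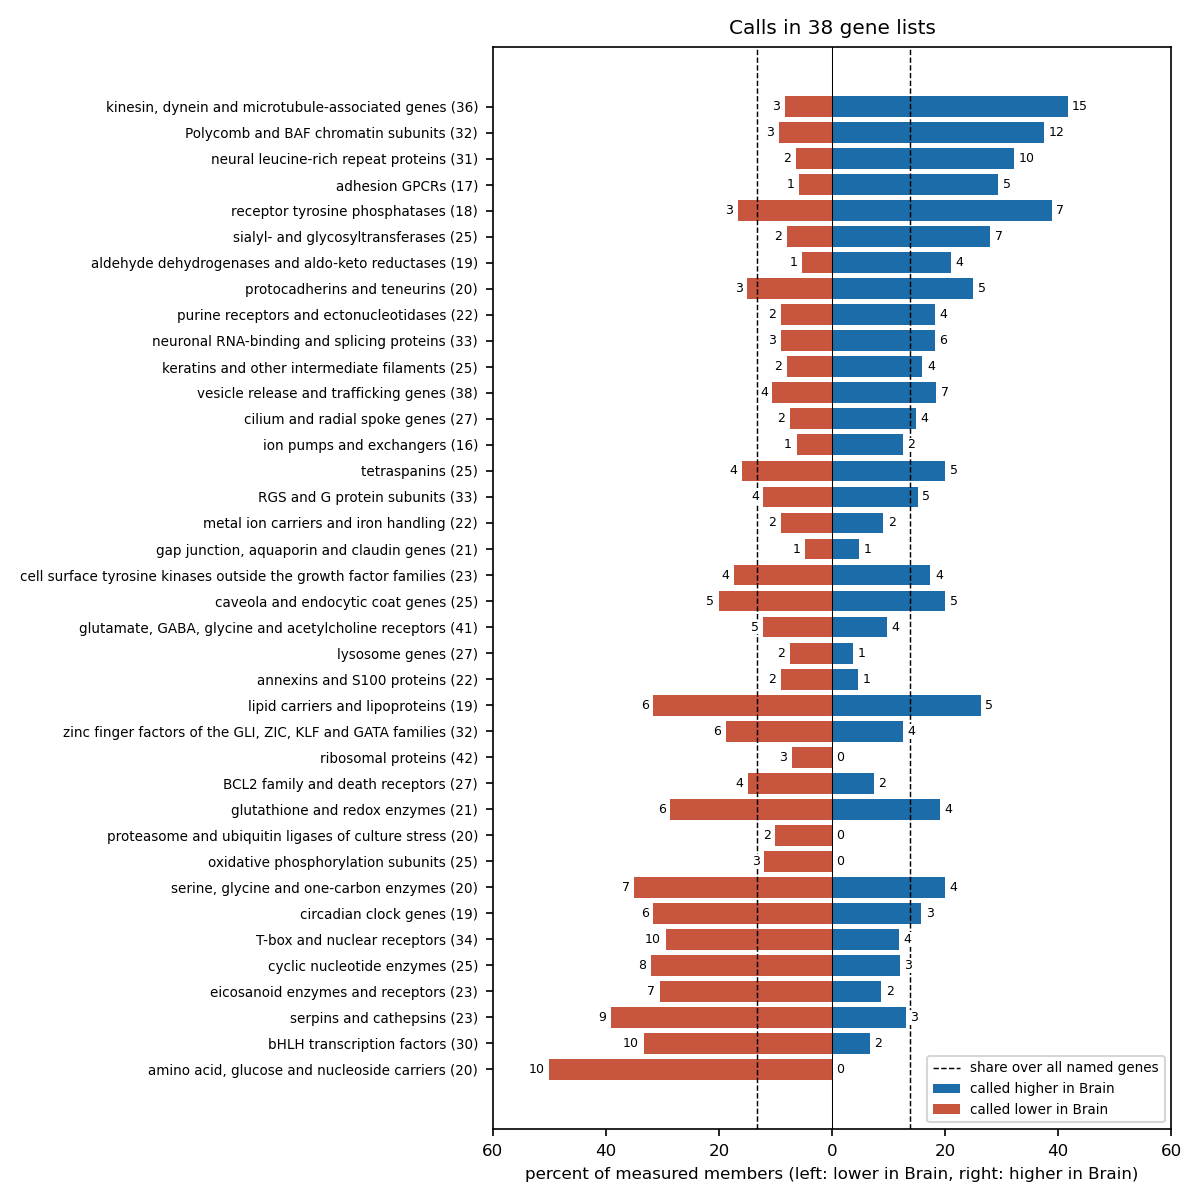
Shares of measured members called higher in Brain (right, numbers of genes at the bar ends) and lower in Brain (left) in each of 38 lists, with the number measured in parentheses. The dashed lines mark the shares over all named genes, 13.8% and 13.2%.

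Among neural leucine-rich repeat proteins, which organise synapses and guide axons, 10 of 31 were called higher and 2 lower (median 0.48). LGI3, a secreted member, read 10.16, 10.73 and 10.44 in the Brain arrays, against 6.32, 3.81 and 4.30 in the Fibroblast arrays (5.63 ± 0.56). LGI4, which Schwann cells secrete for myelination in the mouse, was called higher as well (2.73 ± 0.20). LSAMP, an immunoglobulin-domain protein kept in the same list, read 8.82, 8.92 and 8.61 in the Brain arrays, against 5.78, 5.78 and 6.01 in the Fibroblast arrays (2.92 ± 0.15, adjusted p 1.65e-05). FLRT1 and FLRT3 were called higher and FLRT2 and NEGR1 lower. The lower count was 4 without Fibroblast 3. The FLRT proteins and teneurins are known ligands of the latrophilins, a branch of the adhesion G protein-coupled receptors. In that receptor list 5 of 17 were called higher and 1 lower (median 0.28). The latrophilin ADGRL2 read 7.70, 8.53 and 8.44 in the Brain arrays, against 4.75, 3.47 and 3.27 in the Fibroblast arrays (4.39 ± 0.39), and ADGRL3 read 8.78, 9.13 and 9.60 in the Brain arrays, against 5.08, 6.01 and 4.14 in the Fibroblast arrays (4.09 ± 0.57). ADGRL1 was called higher by a smaller difference (1.58 ± 0.27), so the 3 measured latrophilins moved together. ADGRG1, a receptor of precursors and myelinating glia, was higher too (1.54 ± 0.29).

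Of 20 protocadherins, teneurins and related large adhesion proteins, 5 were called higher and 3 lower (median -0.06). PCDH1 read 9.26, 8.84 and 9.33 in the Brain arrays, against 5.29, 4.46 and 3.82 in the Fibroblast arrays (4.62 ± 0.33). The teneurin TENM1 read 6.25, 7.70 and 6.85 in the Brain arrays, against 3.51, 3.40 and 3.03 in the Fibroblast arrays (3.62 ± 0.33). FAT1, a giant cadherin, read 7.44, 6.75 and 7.44 in the Brain arrays, against 9.86, 10.15 and 9.64 in the Fibroblast arrays (-2.67 ± 0.21). FAT1 and DCHS1 were both lower in Brain. Tetraspanins, which arrange other membrane proteins, had 5 of 25 higher and 4 lower (median -0.09). TSPAN15, which escorts the protease ADAM10 to the surface, read 10.40, 9.13 and 9.15 in the Brain arrays, against 4.51, 3.62 and 3.58 in the Fibroblast arrays (5.65 ± 0.37, adjusted p 4.84e-05). TSPAN14 of the same subfamily read 8.77, 9.21 and 8.99 in the Brain arrays, against 6.48, 6.05 and 5.31 in the Fibroblast arrays (3.04 ± 0.27). TSPAN18 was lower (-3.01 ± 0.36). CD9 was called higher, and CD63, CD81 and CD151 were not called.

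Receptor tyrosine phosphatases had 7 of 18 called higher and 3 lower (median 0.13). The higher count was 4 without Brain 2, Fibroblast 1 or Fibroblast 3, and 3 without Fibroblast 1 and Brain 3 together. PTPRB, best known from endothelium, read 2.51, 2.85 and 2.57 in the Brain arrays, against 7.31, 6.13 and 7.16 in the Fibroblast arrays (-4.23 ± 0.45), and PTPRJ was higher (2.12 ± 0.42). Surface tyrosine kinases outside the growth factor families had 4 of 23 higher and 4 lower (median -0.06), the higher count falling to 2 without Brain 2 or any 1 of the Fibroblast arrays. The 3 largest differences were those of Wnt-binding receptors or co-receptors, each lower in Brain. ROR2 read 4.7, 4.53 and 5.13 in the Brain arrays, against 7.80, 7.79 and 8.44 in the Fibroblast arrays (-3.22 ± 0.22). PTK7 read 6.11, 5.88 and 6.06 in the Brain arrays, against 7.41, 9.27 and 8.21 in the Fibroblast arrays (-2.28 ± 0.41), and RYK read 7.78, 7.72 and 8.09 in the Brain arrays, against 9.74, 9.71 and 9.50 in the Fibroblast arrays (-1.79 ± 0.16). Brain and Fibroblast arrays did not overlap in any of the 3. ROR1, a paralog of ROR2, was called higher (1.47 ± 0.38), and lost the call without Brain 2 (0.0893), Brain 3 (0.0807), Fibroblast 1 (0.062), Fibroblast 2 (0.0576) or Fibroblast 3 (0.0895). Receptors of glutamate, GABA, glycine and acetylcholine had 4 of 41 higher and 5 lower (median -0.05), and the lower count was 3 without Brain 1, Brain 3 or Fibroblast 2. GRIK2, a kainate receptor subunit, read 8.22, 8.83 and 8.41 in the Brain arrays, against 3.76, 3.30 and 3.37 in the Fibroblast arrays (5.01 ± 0.20, adjusted p 3.77e-06). GRIA4, an AMPA receptor subunit, read 7.71, 7.53 and 5.13 in the Brain arrays, against 2.76, 3.10 and 2.74 in the Fibroblast arrays (3.92 ± 0.62). Most subunits of this list, 32 of 41, were not called.

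Enzymes that make and break signalling lipids and nucleotides differed in both directions. Of 23 eicosanoid enzymes and receptors 2 were called higher and 7 lower (median -0.27). HPGDS, a synthase of prostaglandin D2, read 7.45, 7.79 and 7.19 in the Brain arrays, against 1.96, 1.80 and 2.20 in the Fibroblast arrays (5.49 ± 0.19, adjusted p 1.46e-06). PTGDS, the other synthase of prostaglandin D2 and counted among lipid carriers, read 9.05, 8.48 and 7.87 in the Brain arrays, against 5.25, 5.32 and 4.87 in the Fibroblast arrays (3.33 ± 0.31). HPGD, which inactivates prostaglandins, read 7.58, 8.51 and 6.81 in the Brain arrays, against 2.57, 3.13 and 4.30 in the Fibroblast arrays (4.30 ± 0.59). All 3 were thus higher in every Brain array than in any Fibroblast array. PTGIS, the prostacyclin synthase, read 8.04, 6.17 and 6.68 in the Brain arrays, against 9.55, 10.07 and 9.59 in the Fibroblast arrays (-2.77 ± 0.42). PTGFR, the receptor of prostaglandin F2 alpha, read 2.45, 2.60 and 2.58 in the Brain arrays, against 5.87, 5.51 and 5.57 in the Fibroblast arrays (-3.10 ± 0.21). Also called lower were PTGES, a synthase of prostaglandin E2, the prostaglandin D2 receptor PTGDR, the thromboxane receptor TBXA2R and PLA2G4A, which frees arachidonic acid from membranes. PTGS1, PTGER1 to PTGER4 and the lipoxygenases measured were not called.

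Lipid carriers and lipoproteins had 5 of 19 members called higher and 6 lower (median -0.62), with 2 higher and 5 lower without Fibroblast 1 and Brain 3. FABP5, an intracellular fatty acid carrier, read 5.97, 5.62 and 5.20 in the Brain arrays, against 1.90, 1.36 and 1.42 in the Fibroblast arrays (4.04 ± 0.21, adjusted p 1.66e-05). CLU, a secreted chaperone of lipoproteins, read 6.54, 4.81 and 4.88 in the Brain arrays, against 8.57, 9.46 and 8.47 in the Fibroblast arrays (-3.42 ± 0.49). APOE, the main lipoprotein of glia, read 5.26, 5.20 and 5.48 in the Brain arrays, against 7.67, 7.89 and 8.61 in the Fibroblast arrays (-2.74 ± 0.45). APOE was therefore the lower in the cultures from brain. The cholesterol exporter ABCA1 and the receptor LRP1 were called lower as well, and FABP7, a fatty acid carrier of radial glia, was not called.

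Purine receptors and ectonucleotidases had 4 of 22 called higher and 2 lower (median -0.05), the lower count being 1 without Brain 1, Brain 2 or Fibroblast 2. P2RX7, an ATP-gated channel, read 7.13, 8.52 and 8.03 in the Brain arrays, against 4.17, 3.81 and 3.52 in the Fibroblast arrays (4.06 ± 0.38). ENTPD3, which splits ATP outside the cell, read 3.22, 3.60 and 4.38 in the Brain arrays, against 8.89, 7.90 and 7.89 in the Fibroblast arrays (-4.49 ± 0.44). PANX1, a channel that releases ATP, was called higher. Cyclic nucleotide enzymes had 3 of 25 higher and 8 lower (median -0.24). The lower count was 5 without Brain 3, Fibroblast 2 or Fibroblast 3, and 4 without variance moderation. PDE1A, a calmodulin-dependent phosphodiesterase, read 2.30, 2.62 and 5.08 in the Brain arrays, against 9.62, 9.19 and 9.39 in the Fibroblast arrays (-6.07 ± 0.66). PDE10A read 3.29, 3.33 and 3.84 in the Brain arrays, against 6.17, 6.44 and 6.42 in the Fibroblast arrays (-2.86 ± 0.24). PRKACB, a catalytic subunit of protein kinase A, was higher (1.56 ± 0.23). PDE4B was called higher on its representing probe set while another of its probe sets was called the opposite way, and it is left without a value.

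Sialyl- and glycosyltransferases, which finish the sugars of surface proteins and gangliosides, had 7 of 25 called higher and 2 lower (median 0.04), and all 9 calls held through each removal of 1 array. ST6GAL1, which caps N-glycans with sialic acid, read 9.14, 9.44 and 9.84 in the Brain arrays, against 6.12, 3.58 and 2.83 in the Fibroblast arrays (5.30 ± 0.75). B4GALT6, which makes lactosylceramide, read 8.12, 7.93 and 5.71 in the Brain arrays, against 3.07, 3.08 and 3.56 in the Fibroblast arrays (4.02 ± 0.55). ST8SIA1, the synthase of the ganglioside GD3, read 6.47, 6.89 and 7.37 in the Brain arrays, against 3.64, 3.06 and 2.62 in the Fibroblast arrays (3.80 ± 0.62). B4GALNT1, the next enzyme toward complex gangliosides, was called higher too, and ST3GAL5, the synthase of their precursor GM3, lower. ST3GAL6 read 2.13, 3.46 and 2.98 in the Brain arrays, against 5.93, 5.74 and 5.46 in the Fibroblast arrays (-2.85 ± 0.38). The groups did not overlap in any of the 4 genes given with values.

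**Figure D4:**
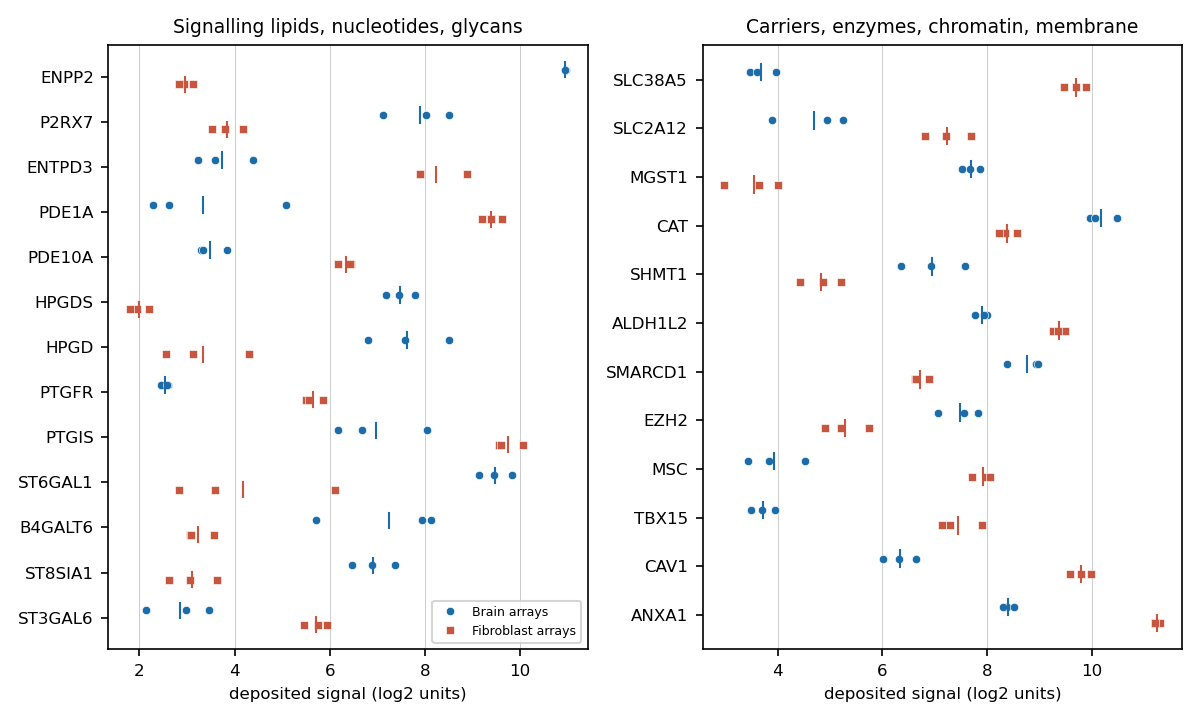
Deposited log2 signals of 25 members of the functional lists, with 1 point for each Brain array (circles) and each Fibroblast array (squares) and a vertical bar at each group's mean. The prostaglandin D2 synthase HPGDS and the transferases B4GALT6 and ST8SIA1 lie higher in Brain. The transferase ST3GAL6, the amino acid carrier SLC38A5, the phosphodiesterases PDE1A and PDE10A, and CAV1 lie lower.

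The list of amino acid, glucose and nucleoside carriers had 0 of 20 measured members called higher in Brain and 10 lower (median -0.60). Without Fibroblast 1 and Brain 3 it had 0 higher and 8 lower. SLC38A5, which carries glutamine and other small neutral amino acids, read 3.97, 3.48 and 3.60 in the Brain arrays, against 9.7, 9.88 and 9.47 in the Fibroblast arrays, a difference of -6.00 ± 0.17 (adjusted p 6.52e-07). SLC2A12, a glucose carrier, read 3.89, 4.93 and 5.25 in the Brain arrays, against 7.20, 6.81 and 7.68 in the Fibroblast arrays (-2.54 ± 0.35). SLC7A2, a carrier of arginine and lysine, read 3.90, 3.56 and 4.34 in the Brain arrays, against 6.65, 5.47 and 7.25 in the Fibroblast arrays (-2.53 ± 0.55). SLC2A10 differed by -2.03 ± 0.34. SLC7A5 and its partner chain SLC3A2, which together exchange large neutral amino acids, were both called lower, as were SLC1A5, SLC1A4, SLC38A1 and SLC2A1. Of these 10, SLC2A1 alone lost its call in a removal, without Brain 1 (0.0623) or Fibroblast 3 (0.0561). The other 10 measured carriers of the list, among them SLC7A1, SLC38A2 and SLC2A3, were not called. Outside the list, the carriers SLC1A1 and SLC16A10 were called higher. Over all 342 measured genes with SLC symbols 38 were called higher and 57 lower.

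Serine, glycine and one-carbon enzymes had 4 of 20 called higher and 7 lower (median -0.22). SHMT1, the cytosolic enzyme that turns serine into glycine, read 7.58, 6.35 and 6.93 in the Brain arrays, against 5.21, 4.86 and 4.43 in the Fibroblast arrays (2.12 ± 0.30). Its mitochondrial counterpart SHMT2 was called lower, and so were MTHFD2 and ALDH1L2 of the mitochondrial folate pathway. ALDH1L2 read 8.0, 7.77 and 7.93 in the Brain arrays, against 9.26, 9.48 and 9.35 in the Fibroblast arrays (-1.46 ± 0.12, adjusted p 0.000117). PSPH, the last step of serine synthesis, read 7.51, 6.98 and 7.41 in the Brain arrays, against 8.99, 8.74 and 8.75 in the Fibroblast arrays (-1.53 ± 0.18), and PSAT1, the step before it, was called lower too. PHGDH, the entry step, was not called. The glycine cleavage subunits GLDC (1.57 ± 0.22) and AMT were higher, while GCSH of the same complex was lower.

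Glutathione and redox enzymes had 4 of 21 higher and 6 lower (median -0.22). The higher count was 2 without Brain 2, Fibroblast 1, Fibroblast 2 or the second skin precursor array, and without Fibroblast 1 and Brain 3 together both counts were 2. MGST1, a membrane-bound glutathione transferase, read 7.52, 7.87 and 7.67 in the Brain arrays, against 2.98, 3.64 and 4.0 in the Fibroblast arrays (4.14 ± 0.31). The catalase gene CAT was called higher too. HMOX1, which breaks down heme, read 5.06, 5.24 and 5.46 in the Brain arrays, against 6.18, 6.63 and 6.84 in the Fibroblast arrays (-1.29 ± 0.18). TXNRD1, TXN and GCLC, known like HMOX1 as targets of the factor NRF2, were called lower. Aldehyde dehydrogenases and aldo-keto reductases had 4 of 19 higher and 1 lower (median 0.17), among them DHRS3, which reduces retinal (2.04 ± 0.39), and 2 were lower without Brain 1 or Brain 2. Metal carriers and iron handling genes had 2 of 22 higher and 2 lower (median -0.19). The zinc importer SLC39A10 was higher (1.02 ± 0.14) and the iron store subunit FTH1 lower (-0.85 ± 0.18), while the lower count was 1 without Brain 2 or Brain 3. Ion pumps and exchangers had 2 of 16 higher and 1 lower (median -0.03), with the sodium pump regulator FXYD6 at 5.89 ± 0.91 and 7.01 without Fibroblast 1 and Brain 3.

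The lists of ribosomal, oxidative phosphorylation, proteasome and lysosome genes had few calls. Ribosomal proteins had 0 of 42 higher and 3 lower (median -0.13), and none of those 3 calls held through each removal. The count of lower ribosomal genes was 0 without Brain 1, Brain 2, Fibroblast 1 or Fibroblast 3. Oxidative phosphorylation subunits had 0 of 25 higher and 3 lower (median -0.18), with 5 lower without Fibroblast 2. Of those, COX7A1, a muscle-type subunit of cytochrome oxidase, read 3.77, 3.97 and 4.38 in the Brain arrays, against 5.47, 4.95 and 5.59 in the Fibroblast arrays (-1.30 ± 0.22). Grouped by symbol, however, the NDUFA genes, most of them of respiratory complex I, had 7 of 11 lower (median -0.51), as given below. Proteasome genes had 0 of 20 higher and 2 lower (median -0.07), PSMB5 among them (-0.82 ± 0.10), and 1 lower without Brain 2, Brain 3 or any 1 of the skin precursor arrays. Lysosome genes had 1 of 27 higher, LAPTM4B (3.66 ± 0.24), and 2 lower (median 0.09), with 3 higher without Brain 3 and 4 lower without Brain 1.

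Subunits of the Polycomb and BAF complexes, which close and open chromatin, had 12 of 32 members called higher and 3 lower (median 0.23), with 9 higher and 1 lower without Fibroblast 1 and Brain 3. EZH2, the methyltransferase of Polycomb complex PRC2, read 7.83, 7.05 and 7.57 in the Brain arrays, against 5.74, 5.20 and 4.89 in the Fibroblast arrays (2.20 ± 0.41, adjusted p 0.00638). EED, the PRC2 subunit that reads the mark, was called lower. SMARCD1, a core BAF subunit, read 8.39, 8.93 and 8.98 in the Brain arrays, against 6.89, 6.63 and 6.63 in the Fibroblast arrays (2.05 ± 0.19). SMARCD3 (1.11 ± 0.16) and ARID1A (0.99 ± 0.16) of BAF were higher as well. The neural BAF subunits ACTL6B, DPF1 and DPF3 were not called. Apart from EZH2 and SMARCD1 these differences were near 1 log2 unit or below, and small beside those of the leading genes.

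Of 30 bHLH factors 2 were called higher and 10 lower (median -0.31), with 6 lower without Brain 1 or Brain 3 and without variance moderation. MSC, or musculin, a repressor in mesoderm, read 3.43, 3.82 and 4.51 in the Brain arrays, against 8.0, 8.05 and 7.70 in the Fibroblast arrays (-3.99 ± 0.26, adjusted p 4.16e-05). TWIST2, a factor of the dermis, read 5.32, 4.88 and 4.88 in the Brain arrays, against 6.93, 7.31 and 6.64 in the Fibroblast arrays (-1.93 ± 0.23). MITF, known from pigment cells, read 5.19, 4.33 and 4.0 in the Brain arrays, against 6.71, 6.65 and 7.19 in the Fibroblast arrays (-2.34 ± 0.28). The proneural factors measured, NEUROD1, NEUROD2, NEUROD4, NEUROD6 and NEUROG2, were not called. T-box and nuclear receptors had 4 of 34 higher and 10 lower (median -0.27). The higher count was 2 without Brain 2, Brain 3 or any 1 of the Fibroblast arrays. TBX18 read 2.88, 2.21 and 4.03 in the Brain arrays, against 6.84, 7.02 and 7.53 in the Fibroblast arrays (-4.10 ± 0.43), and TBX15, which patterns the dermis of the mouse, read 3.95, 3.70 and 3.49 in the Brain arrays, against 7.14, 7.29 and 7.90 in the Fibroblast arrays (-3.73 ± 0.25). TBX3, TBX5, TBX20 and the progesterone receptor PGR were lower too. NR4A2, a nuclear receptor needed by dopamine neurons, read 8.16, 8.79 and 8.31 in the Brain arrays, against 4.93, 5.23 and 4.65 in the Fibroblast arrays (3.48 ± 0.39).

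Zinc finger factors of the GLI, ZIC, KLF and GATA families, counted with the SNAI and ZEB repressors, had 4 of 32 higher and 6 lower (median -0.02). ZEB2, which Schwann cells need to myelinate in the mouse, read 11.30, 11.40 and 11.56 in the Brain arrays, against 9.26, 9.39 and 9.48 in the Fibroblast arrays (2.04 ± 0.18). SNAI2, a repressor of crest and mesenchyme, read 5.15, 5.22 and 7.41 in the Brain arrays, against 10.34, 11.23 and 11.02 in the Fibroblast arrays (-4.94 ± 0.57). The 2 repressors therefore differed in opposite directions, and SNAI2 was highest among Brain arrays in Brain 3. Clock genes had 3 of 19 higher and 6 lower (median -0.09). NPAS2, which can stand in for CLOCK, read 7.73, 8.0 and 7.87 in the Brain arrays, against 4.78, 5.47 and 4.81 in the Fibroblast arrays (2.85 ± 0.25), and CLOCK itself was called lower. ARNTL2 read 2.17, 4.22 and 4.11 in the Brain arrays, against 6.69, 7.26 and 6.82 in the Fibroblast arrays (-3.42 ± 0.49), and NR1D1, the repressor of the loop, read 5.09, 5.38 and 5.38 in the Brain arrays, against 7.13, 7.18 and 7.19 in the Fibroblast arrays (-1.88 ± 0.11, adjusted p 3.03e-05). PER1, PER2, CRY1 and CRY2 were not called. The labels used here give no hours of culture or feeding before extraction.

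Neuronal RNA-binding and splicing proteins had 6 of 33 called higher and 3 lower (median 0.01), and all 9 calls held through each removal. CELF2 read 8.68, 8.84 and 8.54 in the Brain arrays, against 6.51, 4.71 and 4.53 in the Fibroblast arrays (3.44 ± 0.50). PTBP2, the splicing repressor of young neurons, read 9.83, 10.16 and 10.28 in the Brain arrays, against 8.21, 8.01 and 8.21 in the Fibroblast arrays (1.95 ± 0.17). IGF2BP1, a binder of fetal messenger RNAs, read 3.87, 3.68 and 3.62 in the Brain arrays, against 6.60, 7.14 and 6.49 in the Fibroblast arrays (-3.02 ± 0.20). QKI, the splicing factor of myelinating glia, and NOVA1 were called higher, and MBNL1 and RBFOX2 lower. ELAVL3, RBFOX1, RBFOX3 and SRRM4, which mark differentiated neurons, were not called.

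Kinesin, dynein and microtubule-associated genes had 15 of 36 called higher and 3 lower (median 0.22), the largest share higher of the 38 lists over all arrays. Without Fibroblast 1 and Brain 3 the higher count was 7, and the list no longer led, and without Brain 1 the lower count was 5. MAP2, a microtubule protein of dendrites, read 8.51, 9.50 and 9.38 in the Brain arrays, against 3.92, 3.84 and 3.77 in the Fibroblast arrays (5.29 ± 0.24, adjusted p 7.42e-06). STMN1, which breaks down microtubules in dividing and young cells, read 9.07, 8.48 and 8.81 in the Brain arrays, against 5.81, 3.80 and 3.48 in the Fibroblast arrays (4.42 ± 0.90). STMN4 read 6.39, 6.67 and 6.01 in the Brain arrays, against 3.49, 3.22 and 3.14 in the Fibroblast arrays (3.07 ± 0.18). Fibroblast 1 was the highest Fibroblast array in each of the 3, by least in MAP2. Vesicle release and trafficking genes had 7 of 38 higher and 4 lower (median -0.02), with 4 higher without Brain 2, Fibroblast 2 or Fibroblast 3. SCG3, a granin of secretory granules, read 8.04, 8.20 and 7.98 in the Brain arrays, against 4.89, 3.15 and 3.88 in the Fibroblast arrays (4.10 ± 0.44), and SV2B, a vesicle glycoprotein, read 6.91, 7.85 and 6.63 in the Brain arrays, against 3.42, 3.32 and 2.90 in the Fibroblast arrays (3.92 ± 0.30). STXBP6 (-3.55 ± 0.25) and SYT17 (-3.06 ± 0.20) were lower. The core proteins of synaptic release SNAP25, VAMP2, SYN1 and SYT1 were not called.

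Membrane and cytoskeletal lists with calls in both directions followed. Caveola and endocytic coat genes had 5 of 25 higher and 5 lower (median -0.20), with 3 higher without Brain 3, Fibroblast 1 or Fibroblast 2 and 3 lower without Brain 2. CAV1, the main coat protein of caveolae, read 6.32, 6.02 and 6.64 in the Brain arrays, against 9.98, 9.80 and 9.58 in the Fibroblast arrays (-3.46 ± 0.17, adjusted p 1.4e-05). CAV2 read 7.43, 8.21 and 7.90 in the Brain arrays, against 10.39, 10.21 and 10.43 in the Fibroblast arrays (-2.50 ± 0.18). Their partner CAVIN1 was not called, and DNM3, a neuronal dynamin, was higher (2.58 ± 0.41). Annexins and S100 proteins had 1 of 22 higher and 2 lower (median -0.17), with 4 lower without Brain 1. ANXA1 read 8.38, 8.51 and 8.31 in the Brain arrays, against 11.30, 11.20 and 11.20 in the Fibroblast arrays (-2.84 ± 0.10, adjusted p 1.43e-06), and S100A10 was higher (1.22 ± 0.16).

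RGS and G protein subunits had 5 of 33 higher and 4 lower (median -0.09), with 2 higher without Fibroblast 1 or Fibroblast 3, 3 without any 1 of the Brain arrays and 2 lower without Brain 3. GNG11 read 2.75, 3.42 and 4.21 in the Brain arrays, against 7.46, 7.24 and 7.02 in the Fibroblast arrays (-3.78 ± 0.34) and RGS2 read 2.78, 2.71 and 3.56 in the Brain arrays, against 6.15, 6.04 and 5.92 in the Fibroblast arrays (-3.02 ± 0.38).

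Keratins and other intermediate filaments had 4 of 25 higher and 2 lower (median -0.09). The lower count was 1 without any 1 of the Brain arrays, Fibroblast 1 or Fibroblast 3, and 4 without the skin precursor arrays 1 or 2. LMNB1, a lamin of the nuclear envelope, was higher (2.37 ± 0.46), as was NES (1.68 ± 0.23), and VIM, the vimentin of both cell types, was not called. Cilium and radial spoke genes had 4 of 27 higher and 2 lower (median -0.01), the lower count being 1 without any 1 of the Brain arrays, Fibroblast 2 or Fibroblast 3. RFX4, a ciliary factor of the neural tube, read 3.69, 3.94 and 4.15 in the Brain arrays, against 2.71, 2.90 and 2.48 in the Fibroblast arrays (1.23 ± 0.15). Gap junction, aquaporin and claudin genes had 1 of 21 higher and 1 lower (median -0.13), with 2 lower without Brain 1. GJA1, connexin 43, read 5.44, 4.73 and 2.21 in the Brain arrays, against 8.47, 8.21 and 7.84 in the Fibroblast arrays (-4.05 ± 0.72), and AQP4 read 4.85, 4.67 and 5.85 in the Brain arrays, against 2.86, 2.88 and 2.63 in the Fibroblast arrays (2.33 ± 0.31). In GJA1 it was Brain 3 that read lowest.

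Serpins and cathepsins had 3 of 23 higher and 9 lower (median -0.45). The higher count was 0 without Brain 2 and 1 without Brain 3 or Fibroblast 2, and 7 of the 9 lower members kept the call through each removal. CTSH, a lysosomal protease, read 5.34, 6.06 and 5.98 in the Brain arrays, against 8.98, 9.20 and 9.20 in the Fibroblast arrays (-3.33 ± 0.25). SERPINF1, a secreted factor that blocks vessel growth and supports neurons, read 7.94, 6.66 and 7.62 in the Brain arrays, against 10.41, 10.68 and 10.72 in the Fibroblast arrays (-3.20 ± 0.31). SERPINB8 read 3.71, 3.55 and 2.93 in the Brain arrays, against 6.63, 6.34 and 6.13 in the Fibroblast arrays (-2.97 ± 0.26). BCL2 family and death receptor genes had 2 of 27 higher and 4 lower (median -0.18). The higher count was 1 without Brain 2, Fibroblast 1 or Fibroblast 3, and 2 were lower without Fibroblast 1 and Brain 3 together. TNFSF10, the death ligand TRAIL, read 3.87, 6.08 and 6.19 in the Brain arrays, against 9.21, 9.41 and 8.83 in the Fibroblast arrays (-3.77 ± 0.56), and the death receptor FAS read 4.44, 4.57 and 4.51 in the Brain arrays, against 6.81, 7.56 and 8.26 in the Fibroblast arrays (-3.04 ± 0.30). BAX, BAK1 and BCL2L1 were not called.

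Genes were also grouped by the letters of their symbols before the first digit, which gave 275 families with 8 or more measured members. The highest shares called higher were in CDKN (5 of 8, and 2 lower), KAT acetyltransferases (5 of 8), SRSF splicing factors (6 of 10), CHD chromatin remodellers (6 of 10) and MCM replication helicase genes (6 of 10, and 1 lower). Behind them KMT (4 of 8), PHF (9 of 18), PRPF (6 of 12), FRMD (4 of 8) and STARD (5 of 10) were tied at 50%. CDKN2C, an inhibitor of CDK4 and CDK6, read 8.82, 7.81 and 8.13 in the Brain arrays, against 5.59, 4.41 and 4.41 in the Fibroblast arrays (3.45 ± 0.55), and CDKN3 was higher by 2.56 ± 0.49. CDKN1A, the p21 inhibitor, read 8.21, 6.77 and 6.83 in the Brain arrays, against 10.49, 10.51 and 10.59 in the Fibroblast arrays (-3.26 ± 0.35). Members of this family thus differed in opposite directions. CHD7, which crest and neural precursors need, read 7.65, 7.71 and 8.10 in the Brain arrays, against 4.37, 4.11 and 3.23 in the Fibroblast arrays (3.92 ± 0.29), and CHD9 was higher by 1.11 ± 0.18. SRSF4 (0.86 ± 0.15), SRSF1 (0.76 ± 0.13), KAT7 (0.96 ± 0.19) and KAT2B (0.88 ± 0.17) differed by less than 1 log2 unit.

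The replication genes MCM5 (2.60 ± 0.62) and MCM3 (2.52 ± 0.55) differed by more. Their calls were lost without Fibroblast 3 (0.0693 and 0.0514), and that of MCM5 also without Brain 1 (0.0619), Brain 3 (0.0593) or Fibroblast 2 (0.0599). FRMD5, a membrane-cytoskeleton linker, read 6.74, 6.73 and 6.53 in the Brain arrays, against 2.99, 3.23 and 2.89 in the Fibroblast arrays (3.63 ± 0.16), and FRMD6 was higher by 2.73 ± 0.35. STARD9 (2.42 ± 0.36) and STARD13 (2.32 ± 0.36), PHF19 (1.43 ± 0.20) and PHF2 (1.08 ± 0.16), and KMT2E (1.02 ± 0.20) and KMT2A (0.95 ± 0.17) led their families. PRPF39 (0.53 ± 0.16) led its own and lost its call in 7 of 9 removals, at an adjusted p of up to 0.141 (without Brain 3), while PRPF8 was higher by 0.52 ± 0.11.

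The highest shares called lower were in HOXA (8 of 10), NDUFA (7 of 11), HOXB (5 of 9), HOXC (4 of 8), TBX (6 of 12) and HSPB (4 of 8). HOX genes record position along the body axis. HOXA7 read 3.38, 3.54 and 3.47 in the Brain arrays, against 6.91, 6.76 and 6.93 in the Fibroblast arrays (-3.40 ± 0.13, adjusted p 2.7e-06), and HOXA9 differed by -2.86 ± 0.18. HOXC6 read 4.68, 4.23 and 3.13 in the Brain arrays, against 8.17, 7.83 and 8.0 in the Fibroblast arrays (-3.98 ± 0.34), and HOXC8 differed by -2.81 ± 0.15. HOXB4 (-1.26 ± 0.17) and HOXB6 (-1.17 ± 0.21) differed by less. In the small heat shock proteins HSPB8 read 3.17, 2.36 and 2.77 in the Brain arrays, against 7.62, 7.59 and 7.96 in the Fibroblast arrays (-4.96 ± 0.35) and HSPB1 read 10.08, 9.23 and 9.31 in the Brain arrays, against 11.60, 11.63 and 11.87 in the Fibroblast arrays (-2.16 ± 0.27). In NDUFA, most of whose members belong to respiratory complex I, NDUFA11 differed by -1.0 ± 0.12. NDUFA4L2, which hypoxia induces, read 4.29, 4.53 and 6.74 in the Brain arrays, against 6.72, 10.19 and 9.04 in the Fibroblast arrays (-3.46 ± 0.90). Its groups overlapped, and its call was lost without Brain 1 (0.0858), Brain 2 (0.0868), Fibroblast 2 (0.0837) or Fibroblast 3 (0.0845).

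The gene order of the dog reference covered only genes with an identifier in it, 15265 of the 15947 named genes. In that order 15 runs of 4 or more neighbouring genes were all called higher and 14 all called lower. The longest held 7 genes in each direction. Over all genes 13.8% were called higher and 13.2% lower. How many such runs these shares would give by themselves was not tested, so the runs are descriptions. The longest run higher in Brain held EI24, FEZ1, PKNOX2, TMEM218, SLC37A2, CCDC15 and HEPACAM. FEZ1, an axonal transport adaptor, read 8.40, 7.90 and 7.98 in the Brain arrays, against 3.87, 3.33 and 3.19 in the Fibroblast arrays (4.63 ± 0.23), and HEPACAM, an adhesion molecule of glia, read 6.92, 7.18 and 7.75 in the Brain arrays, against 3.78, 3.93 and 3.60 in the Fibroblast arrays (3.52 ± 0.20). EI24, an endoplasmic reticulum protein in the same run, differed by 0.72 ± 0.15, so the neighbours differed in size. The longest run lower in Brain was HOXA3, HOXA4, HOXA5, HOXA7, HOXA9, HOXA10 and HOXA13. HOXA6 was measured and called lower as well, but did not stand among these neighbours in the order used. The calls of HOXA3 and HOXA13 were lost without Brain 2 (0.0848 and 0.0501), Fibroblast 2 (0.0505 and 0.052) or Fibroblast 3 (0.0702 and 0.0524), and that of HOXA3 also without Brain 1 (0.0768) or Fibroblast 1 (0.0799). A run of 5 higher genes held the transporters ABCB4 and ABCB1 with RUNDC3B, SLC25A40 and DBF4. ABCB1 (1.91 ± 0.51) lost its call without Brain 1 (0.0953), Brain 2 (0.094), Fibroblast 1 (0.0739), Fibroblast 2 (0.0799) or Fibroblast 3 (0.0854), while ABCB4 was higher by 2.78 ± 0.54.

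Other runs held 4 genes each. The histone genes H3C13, H2BC18, H2AC20 and H2AC21 were all higher. H2AC21 read 9.93, 8.48 and 9.23 in the Brain arrays, against 6.86, 5.91 and 5.86 in the Fibroblast arrays (3.00 ± 0.49), and H2AC20 was higher by 2.38 ± 0.40. The calls of H3C13 and H2BC18 were lost without Brain 1 (0.0778 and 0.0585), Fibroblast 2 (0.0888 and 0.0548) or Fibroblast 3 (0.0871 and 0.0646), and that of H3C13 also without Brain 3 (0.0803). SCG3 stood in a run with LYSMD2 and the tropomodulins TMOD2 and TMOD3, caps of actin filaments, and TMOD2 read 9.55, 10.14 and 10.06 in the Brain arrays, against 5.36, 4.05 and 3.61 in the Fibroblast arrays (5.58 ± 0.47). Among runs lower in Brain, BTG2 stood with the small proteoglycans FMOD, PRELP and OPTC. PRELP read 6.96, 4.99 and 5.49 in the Brain arrays, against 9.03, 9.45 and 9.68 in the Fibroblast arrays (-3.57 ± 0.45), and FMOD and OPTC differed by -1.61 ± 0.14 and -1.37 ± 0.18. The call of BTG2 was lost without Brain 2 (0.0846), Brain 3 (0.0969) or any 1 of the Fibroblast arrays (0.0546 to 0.0981). SMOC2, THBS2, WDR27 and DSE formed another run. The matrix protein SMOC2 (-2.17 ± 0.54) lost its call without Brain 2 (0.0654), Brain 3 (0.0741), Fibroblast 2 (0.0721) or Fibroblast 3 (0.0647). Near-identical histone genes can share signal on an array.

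The 3 arrays of a group did not contribute alike. Over the 481 genes at least 4-fold higher in Brain, Fibroblast 1 was the Fibroblast array nearest to Brain in 332 (69%), against 80 for Fibroblast 2 and 69 for Fibroblast 3. In 30 of these genes Fibroblast 1 lay at least 2 log2 units above the mean of the other Fibroblast arrays, against 1 gene each for Fibroblast 2 and Fibroblast 3. Over the 438 genes at least 4-fold lower in Brain, Brain 3 was the Brain array nearest to Fibroblast in 227 (51.8%), against 112 for Brain 1 and 99 for Brain 2. In 40 of these Brain 3 lay at least 2 units above the mean of the other Brain arrays, against 2 genes for Brain 1 and 1 for Brain 2. Each shift was a higher reading in genes that were higher in the other culture. In the opposite set no shift toward the other culture was seen for Brain 3, and a small one for Fibroblast 1. Over the 481 genes, Brain 3 was the Brain array nearest to Fibroblast least often, in 105 (21.8%), against 199 for Brain 1 and 177 for Brain 2. Over the 438 genes, Fibroblast 1 was nearest to Brain in 170 (38.8%), against 160 for Fibroblast 2 and 108 for Fibroblast 3. The median distance from the mean of the other Fibroblast arrays was -0.07 for Fibroblast 1, -0.02 for Fibroblast 2 and 0.09 for Fibroblast 3. These counts are a description of the 6 arrays and carry no test.

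The genes in which Brain 3 stood farthest toward Fibroblast were led by actins of smooth muscle. ACTA2 read 4.19, 3.85 and 9.59 in the Brain arrays, against 11.91, 11.97 and 12.04 in the Fibroblast arrays (-6.10 ± 1.29, and -7.98 without Fibroblast 1 and Brain 3). ACTG2 read 5.01, 3.86 and 9.43 in the Brain arrays, against 11.60, 11.67 and 11.58 in the Fibroblast arrays (-5.51 ± 1.20, and -7.19). VNN1, a pantetheinase, read 2.18, 1.83 and 6.90 in the Brain arrays, against 9.33, 9.38 and 9.20 in the Fibroblast arrays (-5.67 ± 1.16, and -7.29). In each, Brain 3 lay above the other Brain arrays by over 4 units and still below every Fibroblast array. The tropomyosin TPM2 read 4.36, 4.61 and 8.95 in the Brain arrays, against 11.95, 11.89 and 11.91 in the Fibroblast arrays, and CCN2, a matricellular growth factor, read 5.36, 3.19 and 8.52 in the Brain arrays, against 10.98, 10.60 and 10.97 in the Fibroblast arrays. ARHGAP29 read 2.41, 2.17 and 5.65 in the Brain arrays, against 8.90, 9.09 and 8.94 in the Fibroblast arrays (-5.56 ± 0.78). IL13RA1, a chain of interleukin receptors, read 2.95, 3.26 and 6.46 in the Brain arrays, against 9.54, 9.84 and 9.51 in the Fibroblast arrays, and the extracellular sulfatase SULF1 read 3.96, 3.78 and 7.17 in the Brain arrays, against 10.83, 10.76 and 9.89 in the Fibroblast arrays. LUM and DCN, given above, complete the 10. In Brain 3 the fibroblast list had a mean of 6.80, while Brain 1 and Brain 2 had 5.30 and 5.33. LUM and DCN belong to that list, so its mean partly repeats the choice of genes. COL1A1, COL1A2, COL3A1 and PDGFRB were also highest in Brain 3 among Brain arrays, while COL5A1, DPT, THY1 and FBLN1 were not. FAP and POSTN, though highest in Brain 3, read low in every Brain array, up to 3.13 and 3.05. The pericyte and smooth muscle list, which holds ACTA2, had a mean of 5.78 in Brain 3, with 4.36 in Brain 1 and 3.98 in Brain 2. CNN1, RGS5 and NOTCH3 of that list were also highest in Brain 3 among Brain arrays, and by less MYH11, KCNJ8 and ABCC9. TAGLN read 9.36 in Brain 1 and 9.43 in Brain 3, DES was lowest in Brain 3 (3.49), and CSPG4 was not highest there. The part of such cells in these readings was not tested.

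The genes in which Fibroblast 1 stood farthest toward Brain were led by SLITRK6, CHL1, GFRA1, IL33, NCAM2 and CDH19. SLITRK6 read 10.61, 10.12 and 10.99 in the Brain arrays, against 7.73, 2.48 and 3.28 in the Fibroblast arrays (6.08 ± 1.21, and 7.49 without Fibroblast 1 and Brain 3). NCAM2, a neural adhesion molecule, read 9.28, 9.60 and 9.73 in the Brain arrays, against 6.57, 3.19 and 2.98 in the Fibroblast arrays (5.29 ± 0.83, and 6.36). FXYD6 read 11.17, 10.57 and 10.66 in the Brain arrays, against 6.99, 3.83 and 3.91 in the Fibroblast arrays. In these Fibroblast 1 lay 3 to 5 units above the other Fibroblast arrays and below every Brain array. In 3 further genes of the 10 the groups overlapped and no call was made. The complement regulator CD55 read 7.90, 7.08 and 6.48 in the Brain arrays, against 7.07, 3.51 and 3.86 in the Fibroblast arrays (adjusted p 0.0895). The vesicle protein CADPS2 read 4.03, 5.05 and 3.39 in the Brain arrays, against 6.32, 3.47 and 2.49 in the Fibroblast arrays, and the lipoprotein lipase LPL read 4.36, 5.80 and 5.15 in the Brain arrays, against 7.63, 4.47 and 4.44 in the Fibroblast arrays. In CADPS2 and LPL Fibroblast 1 was the highest of all 6 arrays. Fibroblast 1 also had the highest mean of the Schwann cell and crest list among Fibroblast arrays, 6.54 where Fibroblast 2 had 5.83 and Fibroblast 3 had 5.47. CDH19 belongs to that list, so its mean partly repeats the choice of genes. NGFR, ERBB3, L1CAM, EDNRB and SOX10 were also highest in Fibroblast 1 among Fibroblast arrays. PMP22, FOXD3, TFAP2A, S100B, GAP43 and CDH2 of the list were not. The part of such cells in these readings was not tested.

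**Figure D5:**
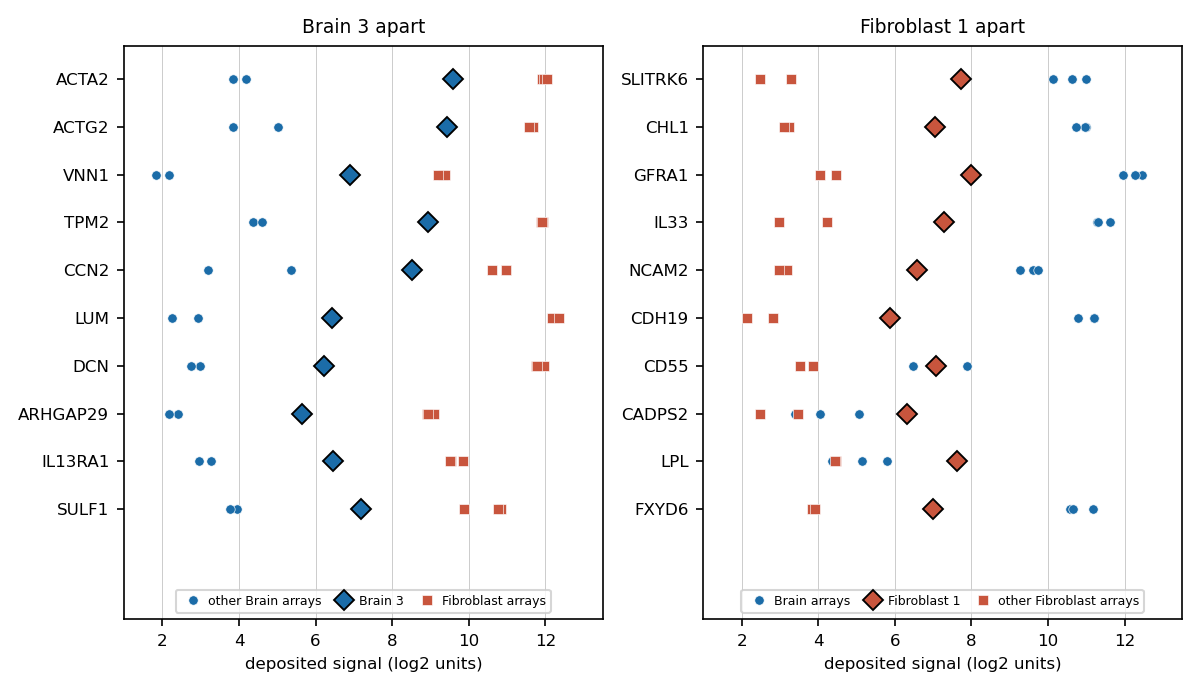
Deposited log2 signals of the 10 genes in which Brain 3 (left, large diamonds) and the 10 in which Fibroblast 1 (right, large diamonds) lie farthest from the other arrays of their group, with circles for Brain arrays and squares for Fibroblast arrays. Brain 3 lies between the groups in all 10 genes on the left, and Fibroblast 1 lies between them in 7 of 10 on the right, the exceptions being CD55, CADPS2 and LPL.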

How the data were processed

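The 9 Affymetrix arrays (3 Brain, 3 Fibroblast, 3 skin precursor) were used as the authors deposited them, as log2 signals in the series value table, with no further normalization. The tools in the submitters' processing notes are Partek, RMA and MAS5, listed without version or role, and the log base is inferred from the range of the values, 0.561 to 13.47. The number of arrays limits the precision. Genes were named from the platform table: 16545 of 32205 probe sets have 1 symbol, 370 several and 15290 are not in that table and stay unnamed. Where a gene had several probe sets (516 genes), the one with the highest mean over the 9 arrays was kept. Symbols can be old, and 15265 genes had an identifier in the UU_Cfam_GSD_1.0 gene table, which supplied the gene order and no coordinates.

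Limma 3.58.1 (R 4.3.3) fitted 1 mean per group over all 9 arrays, which share 1 estimate of the spread (6 residual degrees of freedom), and the Brain minus Fibroblast contrast was tested with empirical Bayes moderation and Benjamini-Hochberg adjustment over 32205 probe sets. The fit was tested on simulated data. Named genes were the 15 with the largest differences in each direction, up to 4 called members a list by size of difference with members whose lack of a call is the point, the 10 genes in which Fibroblast 1 or Brain 3 stood farthest apart, the 2 leading members of symbol families with 8 or more genes and the highest shares called, and neighbouring genes called in 1 direction. The 15 in each direction were taken among called genes whose groups do not overlap, with placeholder symbols left out. Lack of overlap in them is therefore a condition and no result. Members and lists were chosen with earlier results of these data known, so their counts are descriptions. A further list is not reported here. The alternatives were the removal of each array, of Fibroblast 1 and Brain 3 together, other normalizations, filters and variance settings, other fits and probe set rules.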

Additional observations from a re-analysis of the deposited data

How the results depend on the processing

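In 19 alternative analyses between 2425 and 4885 genes were called, against 4308, and none of the calls shared with the main analysis turned in direction. Without Fibroblast 1 and Brain 3 together, 2425 genes (1207 higher in Brain, 1218 lower) and 3657 probe sets were called, of which 2340 genes were shared. That analysis leaves 2 arrays in each group. With 1 array removed at a time, 3180 to 4160 genes were called, 1604 to 2177 higher, 1572 to 1983 lower and 1789 to 2135 at least 2-fold apart, and 4876 to 6365 probe sets. Without variance moderation 3442 genes were called, and with the Brain and Fibroblast arrays alone 3671. Quantile normalization left 47.5% of calls higher in Brain, against 51.2%. Deviations of Brain and Fibroblast arrays of the same number correlated little (0.001, 0.03 and -0.04), and 2 of 6 arrays correlated best with their own number. With 3 arrays a group and no dog named in the labels, these values cannot decide whether the numbers pair samples. A replicate block gave 3941 calls. Of 1976 list counts under alternatives 244 moved by more than 1.5 times, most of them counts of few genes, and the cause was not tested. Low signals limit what can be read: an array gives no true zero, so a low reading does not show absence.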

Other observations

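The genes of this paragraph were chosen after their values were seen, among those outside the lists whose call held through each removal of 1 array. RELN, a secreted guide of migrating neurons, read 9.58, 9.77 and 9.35 in the Brain arrays, against 4.7, 3.55 and 2.87 in the Fibroblast arrays (5.86 ± 0.39). MAOA, which breaks down monoamines, read 10.84, 10.02 and 10.91 in the Brain arrays, against 6.85, 3.55 and 6.54 in the Fibroblast arrays (4.95 ± 0.81), and AGMO, the enzyme that cleaves ether lipids, read 6.09, 7.52 and 6.86 in the Brain arrays, against 3.21, 1.51 and 2.23 in the Fibroblast arrays (4.5 ± 0.53). KCNA1, a potassium channel of axons, differed by 4.77 ± 0.25, and NRN1, a neuritin of growing axons, by 5.69 ± 0.88. All 5 were higher in every Brain array than in any Fibroblast array. Others were lower in Brain. The surface peptidase ANPEP, which trims peptides from their amino end, read 4.10, 4.09 and 3.94 in the Brain arrays, against 9.52, 9.25 and 9.38 in the Fibroblast arrays (-5.34 ± 0.16), and MME, or neprilysin, read 2.40, 2.96 and 1.79 in the Brain arrays, against 7.41, 6.55 and 7.46 in the Fibroblast arrays (-4.76 ± 0.64). CEMIP, which degrades hyaluronan, differed by -5.83 ± 0.47, the oncostatin M receptor OSMR by -5.36 ± 0.49 and the endocytic adaptor DAB2 by -6.09 ± 0.62.

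Brain 1 stood apart from the other Brain arrays as well. The genes below too were chosen after their values were seen. Over all named genes Brain 1 lay at least 2 log2 units from the mean of the other Brain arrays in 94 genes, 53 of them toward the Fibroblast arrays and 41 away from them. The counts for Brain 3 were 83, 63 and 20, and for Fibroblast 1 they were 69, 52 and 17. UCP1, the uncoupling protein of brown fat, read 4.43, 9.50 and 9.21 in the Brain arrays, against 6.26, 5.61 and 5.44 in the Fibroblast arrays. MMP1, a collagenase, read 6.95, 2.25 and 1.85 in the Brain arrays, against 2.03, 2.05 and 2.25 in the Fibroblast arrays. GPNMB, a glycoprotein of lysosome-rich cells, read 11.73, 7.0 and 7.71 in the Brain arrays, against 9.47, 10.31 and 10.74 in the Fibroblast arrays, and the proteoglycan BGN read 7.36, 10.95 and 11.36 in the Brain arrays, against 11.40, 11.92 and 11.43 in the Fibroblast arrays. Brain 1 was thus low in UCP1 and BGN and high in MMP1 and GPNMB. Limma's array weights were 0.565, 1.12 and 1.49 for Brain 1 to 3 and 1.36, 0.699 and 0.766 for Fibroblast 1 to 3.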
